A study of Mus musculus with 4 samples.

Results

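Chemokines are small secreted proteins that attract white blood cells, and this report describes the genes of the chemokines and their receptors in mouse middle ears after diesel exhaust particle (DEP) inhalation. The members were every gene on the array whose symbol begins with Ccl, Cxcl, Xcl, Cx3cl, Ccr, Cxcr, Xcr, Cx3cr or Ackr followed by a number, and the platelet chemokine genes Pf4 and Ppbp. By this rule 58 of the 20971 named genes with a probe belonged to the family, with 70 probes in 79 spots. A further 6 family symbols (Ccl21a, Ccl21b, Ccl21c, Ccl21d, Ccl27b and Cxcl11) had no matched probe and were not analysed here.

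Chemokines bind receptors that span the cell membrane and signal through inhibitory G proteins, and cells migrate towards higher concentrations of them. Inflammatory chemokines are made on demand at sites of injury and draw in monocytes, neutrophils and eosinophils, whereas homeostatic chemokines are made steadily and guide the traffic of lymphocytes through tissues. Atypical receptors bind chemokines without this signal and take them up or pass them across the vessel wall. In the middle ear, chemokines such as CXCL1 and CCL2 are known from otitis media, in which neutrophils and macrophages enter the cavity.

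RNA was labelled in 2 colours and hybridized to 4 Agilent 4x44K arrays on 1 slide, each holding 1 DEP extract in Cy5 and 1 control extract in Cy3. The mice were 9 male BALB/c mice of 6 to 10 weeks. DEPs suspended in saline with Tween were inhaled for 1 h on each of 5 days, and the temporal bone area with the middle ear was taken on day 14. The controls are labelled as not treated, and the sources used here do not say whether they inhaled the vehicle or how many mice went into 1 extract. The labels name the extracts DEP_ear and CON_ear and call the arrays biological replicates. The dyes were not swapped, so a dye effect and a treatment effect cannot be told apart. The extract is a whole tissue that includes bone and marrow. In such a sample, fewer cells of a type and less RNA per cell cannot be told apart.

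Ratios are given on the log2 scale as DEP over control, in the order of arrays 1 to 4, and a ratio of 1 means a 2-fold higher signal in the DEP channel. This direction follows the channel labels and is opposite to the one the study gave for the genes it named. By quantitative PCR the study reported CHRM1 and EPO as increased and ESR1, SOS1, CD4 and IFNA1 as decreased, in its own direction. Over the 29925 tested probes with a ratio on every array, arrays 1 and 4 correlated at r = -0.24, and over the 14275 genes that the scanner software rated well above background in Cy5 and in Cy3 on each array at r = -0.52. Among these genes the ratios of array 1 had an SD of 0.94, against 0.47 to 0.55 on the other arrays. Since arrays 1 and 4 ran against each other, the family was also described with the sign of either array turned, a choice made after seeing the data.

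Of the 58 genes, 51 gave a ratio on at least 3 arrays and were tested, and 43 were among those rated well above background in Cy5 and in Cy3 on each array. The latter are called measured in full. The genes not tested were Ccl20, Ccl22, Ccl26, Cxcl2, Cxcl3, Cxcl15 and Xcr1, and those tested but not measured in full included Ccl1, Xcl1, Ccr1, Ccr4, Ccr8, Cxcr1 and Cxcr5. The ligand genes Ccl8, Cxcl13, Ccl11 and Ccl19, the receptor gene Ccr9 and the atypical receptor gene Ackr4 had ratios above 0 on every array and an unadjusted p under 0.05 in limma, a linear model fitted to each probe, and none of them passed after adjustment. The monocyte chemokine genes Ccl2, Ccl7 and Ccl12 had large ratios of opposite sign on different arrays.

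The starts of 5 family genes are shown here because they are set against each other below: Ccl19 and Cxcl13, whose ratios were above 0 on every array, the chromosome 11 neighbours Ccl12 and Ccl8, of which only Ccl8 was above 0 on every array, and Cxcl1, which stood apart on array 1. The sequences are 300-base windows across the annotated start from RefSeq (GRCm38.p6), 5′ to 3′ on the gene's strand. The windows lie at chr4:42756316-42756615 (minus strand) for Ccl19, chr5:95956689-95956988 (plus) for Cxcl13, chr11:82101595-82101894 (plus) for Ccl12, chr11:82114935-82115234 (plus) for Ccl8 and chr5:90890995-90891294 (plus) for Cxcl1. Capitals mark matches to 4 motifs searched on both strands: the kappaB consensus, the core of the dioxin response element GCGTG, the AP-1 motif TGANTCA and the STAT motif TTCNNNGAA. The dioxin response element binds the aryl hydrocarbon receptor, which polycyclic aromatic hydrocarbons of diesel exhaust activate, and kappaB sites bind NF-kappaB.
Ccl19: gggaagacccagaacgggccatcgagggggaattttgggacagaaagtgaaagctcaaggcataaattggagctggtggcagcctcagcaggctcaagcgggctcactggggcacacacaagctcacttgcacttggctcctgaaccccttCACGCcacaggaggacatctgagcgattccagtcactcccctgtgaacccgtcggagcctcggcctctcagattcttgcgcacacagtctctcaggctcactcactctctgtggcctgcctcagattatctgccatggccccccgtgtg
Cxcl13: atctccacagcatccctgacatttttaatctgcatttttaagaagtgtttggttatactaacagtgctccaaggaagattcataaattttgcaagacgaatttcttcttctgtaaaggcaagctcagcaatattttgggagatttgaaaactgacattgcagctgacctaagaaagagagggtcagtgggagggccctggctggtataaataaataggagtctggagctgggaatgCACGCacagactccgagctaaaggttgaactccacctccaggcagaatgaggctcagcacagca
Ccl12: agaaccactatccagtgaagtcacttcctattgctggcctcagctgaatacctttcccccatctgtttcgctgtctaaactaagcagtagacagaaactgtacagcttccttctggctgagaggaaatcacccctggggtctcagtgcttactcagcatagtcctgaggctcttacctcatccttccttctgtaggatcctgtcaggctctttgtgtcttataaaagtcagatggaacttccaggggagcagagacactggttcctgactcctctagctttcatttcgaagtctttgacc
Ccl8: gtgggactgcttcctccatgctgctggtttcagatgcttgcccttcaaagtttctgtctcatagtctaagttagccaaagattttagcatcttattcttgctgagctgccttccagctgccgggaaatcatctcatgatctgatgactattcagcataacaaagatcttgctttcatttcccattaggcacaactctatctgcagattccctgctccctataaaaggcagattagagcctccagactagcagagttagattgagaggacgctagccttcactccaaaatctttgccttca
Cxcl1: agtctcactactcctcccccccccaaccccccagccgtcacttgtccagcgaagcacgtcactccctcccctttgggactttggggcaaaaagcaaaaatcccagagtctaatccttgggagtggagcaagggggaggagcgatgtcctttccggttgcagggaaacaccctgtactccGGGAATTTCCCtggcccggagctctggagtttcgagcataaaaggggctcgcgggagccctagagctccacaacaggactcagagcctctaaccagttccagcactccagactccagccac
The capitals in Ccl19 and Cxcl13 are the dioxin response element core on the opposite strand, beginning at base -99 and at base -14 from the annotated start. In Cxcl1 they are overlapping kappaB matches on the plus strand from base -71 and on the minus strand from base -70. The windows of Ccl8 and Ccl12 held no match to these letters. Over 48 windows of 44 family genes, the kappaB consensus was matched in 12 (25.0%, against 8.46% of 32851 windows of all genes). The dioxin core was matched in 19 family windows (39.6%, against 32.4%), AP-1 in 8 (16.7%, against 7.81%) and the STAT motif in 3 (6.25%, against 8.3%). A match describes the letters of a window and not a bound site.

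The comparison of DEP with control asks which family genes differed between the channels by more than the spread over the 4 arrays. In limma, 0 of the 51 family genes had an adjusted p under 0.05, as was the case for 0.0% of the 17962 genes tested. The adjusted p of the family genes lay between 0.105 and 0.987, and the smallest over all probes was 0.0922. At an unadjusted p under 0.05, 10 family genes (19.6%) were higher in the DEP channel, against 9.19% of all genes, and 0 were lower, against 7.5%. Of the genes measured in full, 6 of 43 (14%) were higher at that limit, against 6.65%, and 0 were lower, against 5.86%. Ratios above 0 on all 4 arrays were found for 9 family genes (20.9%, against 15.4% of all genes measured in full) and ratios below 0 on all 4 for 0, against 10.2%. These counts take the brightest probe of each gene; a dimmer probe of Cx3cr1 was below 0 on all 4 arrays, at an unadjusted p under 0.05. If the labels of the channels were exchanged on all 4 arrays, each count would hold for the opposite direction, with 0 higher and 10 lower at that unadjusted limit among the genes tested. Past 2-fold, 1 family gene was higher (1.96%, against 2.15%) and 0 were lower, against 4.06%. That gene was Ccl1, which was well above background on 1 array in Cy5 and on 0 in Cy3; its size is not given for that reason.

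**Figure D1:**
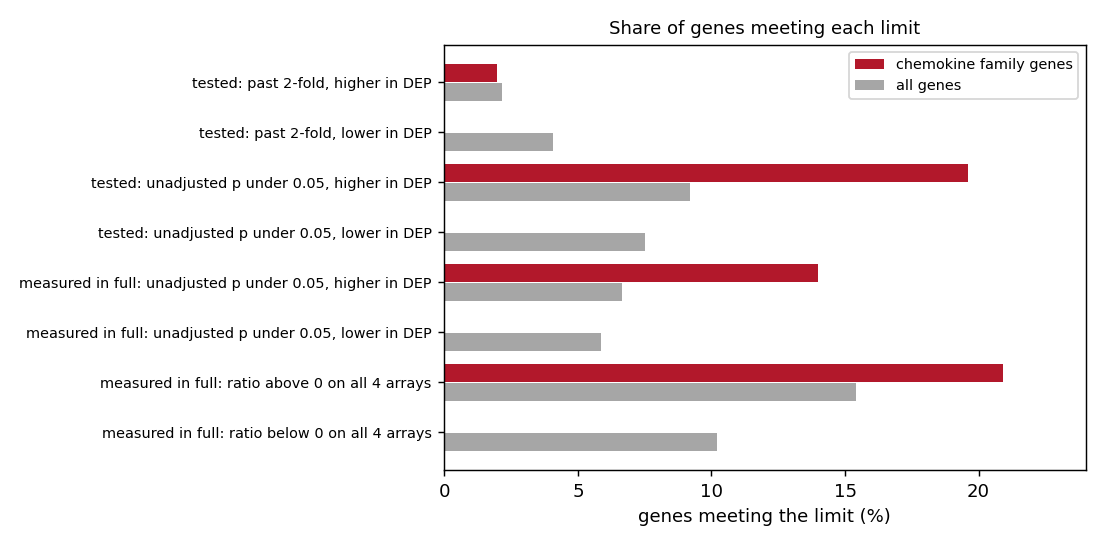
Percent of the chemokine family genes (red) and of all genes (grey) that met each limit, among the 51 and 17962 genes tested or the 43 and 14275 measured in full. The red bars are the longer ones for unadjusted p under 0.05 higher in DEP and for ratios above 0 on all arrays, and have no length for each limit in the lower direction.

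The median of the 43 mean ratios was 0.16, against 0.04 for all genes measured in full, and 72.1% of the family means were above 0, against 55.7%. This changed with the sign of array 4 and with the processing, whose normexp alternatives changed background correction and normalization together. With the sign of array 4 turned, the median was -0.03, against 0.01 for all genes, and 46.5% of the family means were above 0, against 51.5%. With normexp and centring on the median the family did not stand apart, at 0.18 against 0.18 and at 76.7% against 72.7%. With normexp and loess its median was 0.06, against 0.00, but 65.1% of its means were above 0, against 50.8%. Without array 4 the median was 0.11, against 0.03, and the share 62.8%, against 53.8%. On single arrays the family median was 0.22, 0.10, 0.05 and 0.36, against -0.03, 0.09, 0.01 and 0.05 for all genes. The family genes also moved more between arrays. The distance from a gene's lowest to its highest ratio had a median of 1.14 in the family and of 0.64 over all genes, and it was above 2 for 8 family genes (18.6%, against 9.44%). Over the 43 genes, array 1 correlated at r = -0.07, -0.20 and -0.25 with arrays 2, 3 and 4, while arrays 2 and 3 correlated at 0.40, arrays 2 and 4 at -0.02 and arrays 3 and 4 at 0.21. Over all genes measured in full, array 1 correlated at 0.64, 0.45 and -0.52 with arrays 2, 3 and 4, arrays 2 and 3 at 0.40, arrays 2 and 4 at -0.07 and arrays 3 and 4 at 0.01. These genes share their arrays and are not independent.

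**Figure D2:**
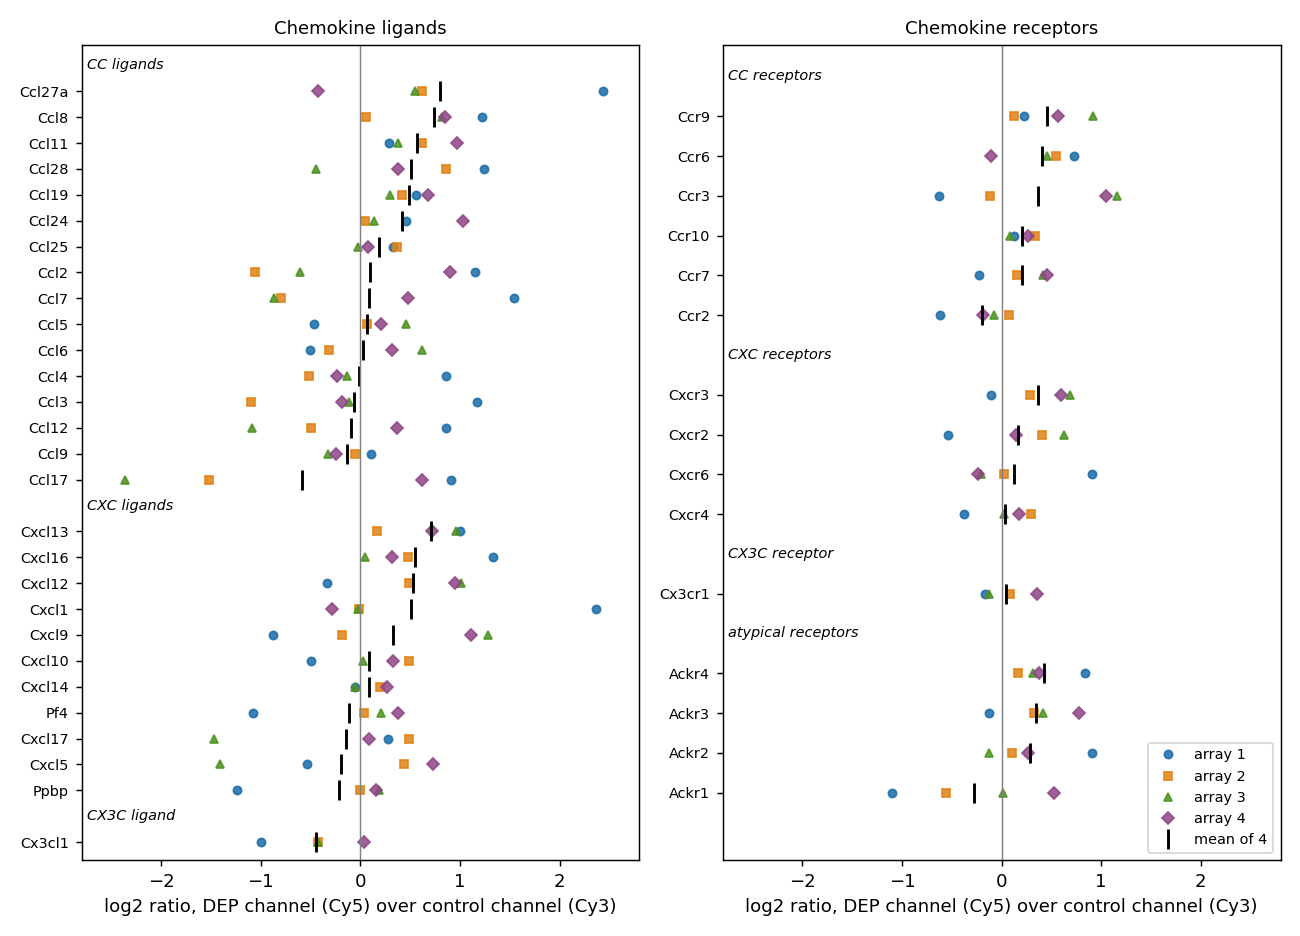
Log2 ratio of DEP over control (horizontal axis) for each of the 43 genes measured in full, grouped by class and ordered by mean, with 1 symbol per array and a black tick for the mean of 4. Ccl8, Cxcl13, Ccl11, Ccl19, Ccr9 and Ackr4 lie to the right of 0 on every array, whereas Ccl2, Ccl7, Ccl17, Cxcl1 and Ccl27a spread widely.

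Among the ligands measured in full, all 7 homeostatic ones had a mean above 0, with a median of 0.51, while 10 of the 15 inflammatory ones did, with a median of 0.09. Over all genes measured in full, 55.7% of means were above 0. Without array 1 these were 7 of 7 with a median of 0.26 and 7 of 15 with a median of -0.08. Of the inflammatory ones it was 12 without array 2 (median 0.29), 11 without array 3 (0.21) and 8 without array 4 (0.01). The homeostatic ones stayed at 7 of 7 in each. With array 1 turned, 5 of 7 and 8 of 15 were above 0 (medians 0.12 and 0.07). With array 4 turned, 6 of 7 and 5 of 15 were (0.15 and -0.08). The mean was above 0 for 1 of 3 ligands with both roles (Cxcl16, not Ccl17 or Cx3cl1), for 0 of the 2 platelet ligands and for 0 of 1 other ligand (Cxcl17). With the sign of array 1 turned, the means of Ccl27a and Ccl28 were -0.42 and -0.11, and with that of array 4 turned the mean of Cxcl14 was -0.04. The division into homeostatic and inflammatory ligands was made from general knowledge. Single ratios below 0 occurred in 5 of the 7 homeostatic genes (Ccl25, Ccl27a, Ccl28, Cxcl12 and Cxcl14), so that Ccl19 and Cxcl13 were the ones above 0 on every array.

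Ccl19 on chromosome 4 (probe A_55_P2099742) encodes the ligand of CCR7 that guides naive T cells and dendritic cells in lymphoid tissue. Its log2 ratios were 0.56, 0.42, 0.30 and 0.68. The processed signals were 420, 273, 259 and 273 in the DEP channel and 285, 204, 211 and 170 in the control channel, so that the DEP signal was the higher one on each array. The mean ratio was 0.49 ± 0.17 (SD, n = 4; SE 0.12; limma adjusted p = 0.165), or 1.40-fold. The other probes of the gene had means of 0.36 and 0.43 and were above 0 on every array as well. Mouse Ccl19 has near-identical gene copies, whose transcripts these probes may also bind. Its receptor gene Ccr7 had ratios of -0.23, 0.15, 0.42 and 0.46, with a mean of 0.20 ± 0.32 (SD, n = 4; limma adjusted p = 0.524).

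Cxcl13 on chromosome 5 (A_51_P378789) encodes the chemokine that draws B cells into follicles. Its log2 ratios were 1.00, 0.17, 0.96 and 0.72, from signals of 199, 102, 144 and 113 in the DEP channel and 100, 90.3, 74.2 and 68.9 in the control channel. All DEP signals thus lay above all control signals, though these were dim spots. The mean was 0.71 ± 0.38 (SD, n = 4; SE 0.18; limma adjusted p = 0.170), or 1.64-fold, but 0.39 with normexp background correction and loess and 0.30 with normexp and centring on the median. Its receptor gene Cxcr5, well above background on 3 arrays in the control channel, had ratios of 0.25, 0.46, 0.98 and 0.21. B cell genes lay lower on array 1 than on arrays 3 and 4: of the 9 B cell markers measured in full, 0, 6, 8 and 8 were above 0, with medians of -0.62, 0.08, 0.67 and 0.59. The summed B cell signal spanned 24571 to 34097 in the DEP channel and 16854 to 39818 in the control channel. Cxcl13 had its highest ratio on array 1, where each B cell marker was below 0.

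The remaining homeostatic ligands had less even ratios. Ccl25, which encodes the ligand of CCR9, had 0.33, 0.37, -0.02 and 0.08. Ccl28, whose product attracts plasma cells to mucosae, had 1.24, 0.86, -0.45 and 0.38. Cxcl12, encoding the ligand of CXCR4 that retains blood cell precursors in marrow, had -0.34, 0.49, 1.01 and 0.95, and its other probe had the same sign on each array. Cxcl14 stayed between -0.05 and 0.27. Only array 1 was below 0 for Cxcl12, and the mean without it was 0.82 (against 0.53 with it), at an unadjusted p under 0.05. Without array 2, 3 or 4 the mean of Cxcl12 was 0.54, 0.37 or 0.39, and the gene did not pass that limit.

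Ccl27a had the largest mean of the family genes measured in full, 0.80 ± 1.20 (SD, n = 4; limma adjusted p = 0.410), but 0.25 without array 1 and 0.39 as the mean of its probes. CCL27 is made by keratinocytes and attracts T cells to skin. Its ratios were 2.44, 0.62, 0.55 and -0.43, so that array 1 was far above the others and array 4 below 0. A second probe gave 2.41, 0.57, 0.53 and -0.48. The third, A_55_P2070576, gave -1.40, -1.28, 0.26 and 0.93 and was well above background in the control channel on 2 arrays only. The genome holds a near-identical copy, Ccl27b. Keratin genes of squamous epithelium were likewise highest on array 1 and lowest on array 4: Krt14 had 2.95, 0.57, 0.92 and -1.80 and Krt5 had 2.17, 0.35, 0.08 and -1.24. Of the 10 epithelial markers, 4 (Krt14, Krt5, Cdh1 and Epcam) were highest on array 1 and lowest on array 4, whereas 5 (Krt8, Krt18, Krt19, Foxj1 and Muc5b) were below 0 on array 1 and lowest on array 3. Across the list, 4, 9, 3 and 1 were above 0 on the 4 arrays, and their summed signal spanned 137933 to 257455 in the DEP channel and 135217 to 251993 in the control channel. Their part in the Ccl27a ratios was not tested.

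Ccl8 on chromosome 11 (A_51_P464703) encodes MCP-2, which in mice acts on CCR8. Its ratios were 1.22, 0.06, 0.82 and 0.85, the largest mean of the inflammatory ligands measured in full. The signals were 1837, 613, 1007 and 574 in the DEP channel and 787, 586, 569 and 319 in the control channel. They were nearly equal on array 2 and apart on the other 3. The mean was 0.74 ± 0.49 (SD, n = 4; SE 0.21; limma adjusted p = 0.199), or 1.67-fold. The receptor gene Ccr8 was well above background on 2 arrays in the control channel and had ratios of 0.38, -0.09, -0.06 and 0.10.

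Ccl11 (A_51_P331752), also on chromosome 11, encodes eotaxin-1, which attracts eosinophils through CCR3. Its ratios were 0.29, 0.62, 0.38 and 0.97. The signals were 666, 370, 557 and 395 in the DEP channel and 545, 240, 428 and 201 in the control channel, higher with DEP on each array. The mean was 0.57 ± 0.31 (SD, n = 4; SE 0.15; limma adjusted p = 0.186), or 1.48-fold. The second eotaxin gene, Ccl24, had ratios of 0.46, 0.05, 0.14 and 1.03, all above 0, with a mean of 0.42 ± 0.44 (SD, n = 4; limma adjusted p = 0.324).

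Ccr3, the eotaxin receptor gene, was split between the arrays, with -0.63, -0.12, 1.16 and 1.05 and a mean of 0.37 ± 0.88 (SD, n = 4; limma adjusted p = 0.597). It was below 0 on arrays 1 and 2 and above 2-fold on arrays 3 and 4. Eosinophil genes had like ratios: Prg2, which encodes major basic protein, had -0.89, 0.42, 3.24 and 2.16, and Siglecf had -0.05, 0.49, 1.69 and 1.23. All 3 eosinophil markers measured in full were below 0 on array 1 and above 0 on the rest, and the summed eosinophil signal spanned 14320 to 18625 in the DEP channel but 1766 to 26204 in the control channel. Their part in the Ccr3 ratios was not tested. Ccl11 and Ccl24 were above 0 on array 1 too, where the eosinophil markers were below 0.

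Ccr9 on chromosome 9 (A_52_P30312) encodes the CCL25 receptor of gut-homing T cells and thymocytes. Its ratios were 0.22, 0.12, 0.92 and 0.57, from DEP signals of 156, 133, 135 and 130 and control signals of 134, 123, 71.6 and 87.5. The DEP signals were close to each other, and the spread lay in the control channel. The mean was 0.46 ± 0.36 (SD, n = 4; SE 0.17; limma adjusted p = 0.260), or 1.37-fold.

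Ackr4 on chromosome 9 (A_52_P153291) encodes a scavenger of CCL19, CCL21 and CCL25. Its ratios were 0.84, 0.16, 0.32 and 0.38, from signals of 470, 303, 225 and 308 in the DEP channel and 264, 270, 180 and 236 in the control channel. The DEP signal was higher on each array, with array 1 farthest. The mean was 0.43 ± 0.29 (SD, n = 4; SE 0.15; limma adjusted p = 0.242), or 1.34-fold. Ackr4 is also made on lymphatic vessels. Of the 4 lymphatic markers, 2 were measured in full: Lyve1 had 0.62, 0.51, 0.45 and 1.23 and Pdpn had 0.02, 0.23, -0.23 and 0.63. Their part in the Ackr4 ratios was not tested.

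**Figure D3:**
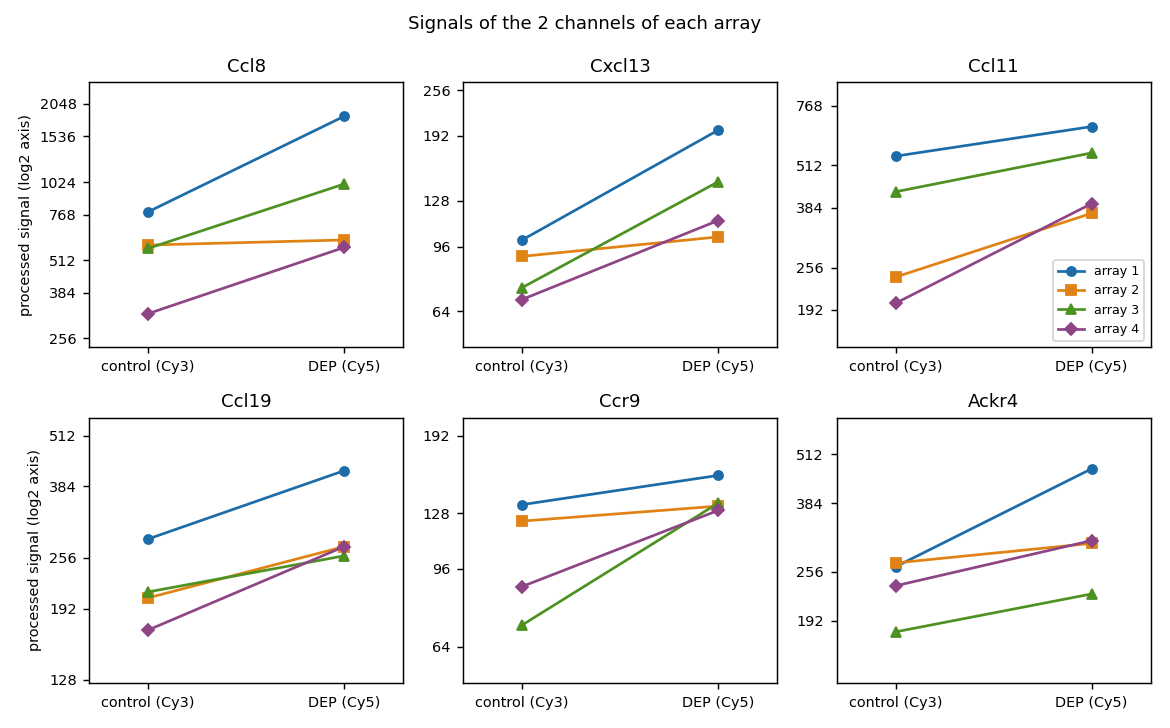
Processed signal (log2 axis, scaled for each gene) of the control channel and the DEP channel, joined for each of the 4 arrays, for the 6 genes measured in full with ratios above 0 on every array and an unadjusted p under 0.05. Each line goes up from control to DEP, least for Ccl8 on array 2, from 586 to 613.

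These 6 genes were not equally stable. Cxcl13 and Ccl19 stayed under an unadjusted p of 0.05 without any one of the 4 arrays, Ccl11 without any but array 2 (0.55 without it), and Ccl8, Ccr9 and Ackr4 only without array 2. With the sign of array 1 turned, the 6 means were 0.01 to 0.42, and with that of array 4 turned 0.08 to 0.35, and none of the 6 passed that limit under either. With normexp background correction and loess the 6 means were 0.18 to 0.63, and with normexp and centring on the median 0.13 to 0.80, lowest for Ccr9 in both. At an unadjusted p under 0.05, Ccr9 was lost under both of these, Ackr4 under the first, and Ccl8, Ccr9 and Ackr4 in the test without moderation, while Cxcl13, Ccl19 and Ccl11 passed in all 3. The mean of Ccr9 was 0.30 without array 3.

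Cxcl16, Ccr10 and Ccl24 were the other genes measured in full with ratios above 0 on every array. Of the genes not measured in full, Cxcr5, Cxcr1 and Xcl1 had them as well. Cxcl16 encodes a membrane-bound chemokine for CXCR6 and had ratios of 1.33, 0.48, 0.05 and 0.32, while its receptor gene Cxcr6 had 0.91, 0.02, -0.21 and -0.24. Array 1 was the highest for both. Ccr10, the gene of the CCL27 and CCL28 receptor, stayed between 0.08 and 0.34.

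The ligands of CCR2, the receptor that brings monocytes out of marrow, were set apart by their pattern across arrays. Ccl2, encoding MCP-1, had ratios of 1.15, -1.06, -0.61 and 0.90. Ccl7, encoding MCP-3, had 1.54, -0.80, -0.87 and 0.48. Ccl12, encoding MCP-5, had 0.86, -0.50, -1.09 and 0.37. All 3 were thus above 0 on arrays 1 and 4 and below 0 on arrays 2 and 3, and their means of 0.10 ± 1.09, 0.09 ± 1.15 and -0.09 ± 0.88 (SD, n = 4) were small against that spread. Ccl17, which encodes a ligand of CCR4 made by dendritic cells, had the same signs, 0.91, -1.52, -2.36 and 0.62. These 4 genes are 9.3% of the 43, and 0.897% of all genes measured in full had those signs. The signs were noticed in the data and were not tested.

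The signals of Ccl2 were 882, 202, 242 and 231 in the DEP channel and 397, 421, 369 and 123 in the control channel. Those of Ccl17 were 145, 55.1, 71.6 and 81.5 with DEP and 76.8, 158, 368 and 52.9 in the controls. In both genes the DEP signal was highest on array 1 and the control signal lowest on array 4. The receptor gene Ccr2 did not share the pattern, with -0.62, 0.07, -0.08 and -0.19. Of the macrophage and monocyte markers measured in full, 1, 3, 7 and 7 of 10 were above 0. Il1b, which encodes a cytokine that induces these chemokines, had 0.56, -0.14, -0.23 and 0.65, with the same signs, and was the only 1 of 5 inducing cytokine and response genes measured in full that had them. Rgs1, which encodes a brake on chemokine receptor signals, also had them, at 1.51, -2.57, -1.50 and 0.63, as 1 of 31 signalling genes measured in full. Both were picked after their values were seen.

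On chromosome 11 the RefSeq annotation (GRCm38.p6) places Ccl2, Ccl7, Ccl11, Ccl12, Ccl8 and Ccl1 in this order. Ccl11 and Ccl8 were above 0 on all 4 arrays, while Ccl2, Ccl7 and Ccl12, which lie beside them, were not. A further row of neighbours, Ccl5, Ccl9, Ccl6, Ccl3 and Ccl4, held no gene above 0 on all arrays. Within it Ccl3 (1.17, -1.10, -0.11 and -0.19) and Ccl4 (0.86, -0.52, -0.13 and -0.24), which encode the macrophage inflammatory proteins MIP-1alpha and MIP-1beta, were above 0 on array 1 and below it on the rest, as were their neighbour Ccl9 and the chromosome 5 gene Cxcl1. These 4 are 9.3% of the family genes measured in full, against 4.6% of all genes. The opposite signs, below 0 on array 1 and above it on the rest, were found for 10 (23.3%, against 11.8%). Ccl5 and Ccl6, by contrast, were below 0 on array 1.

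**Figure D4:**
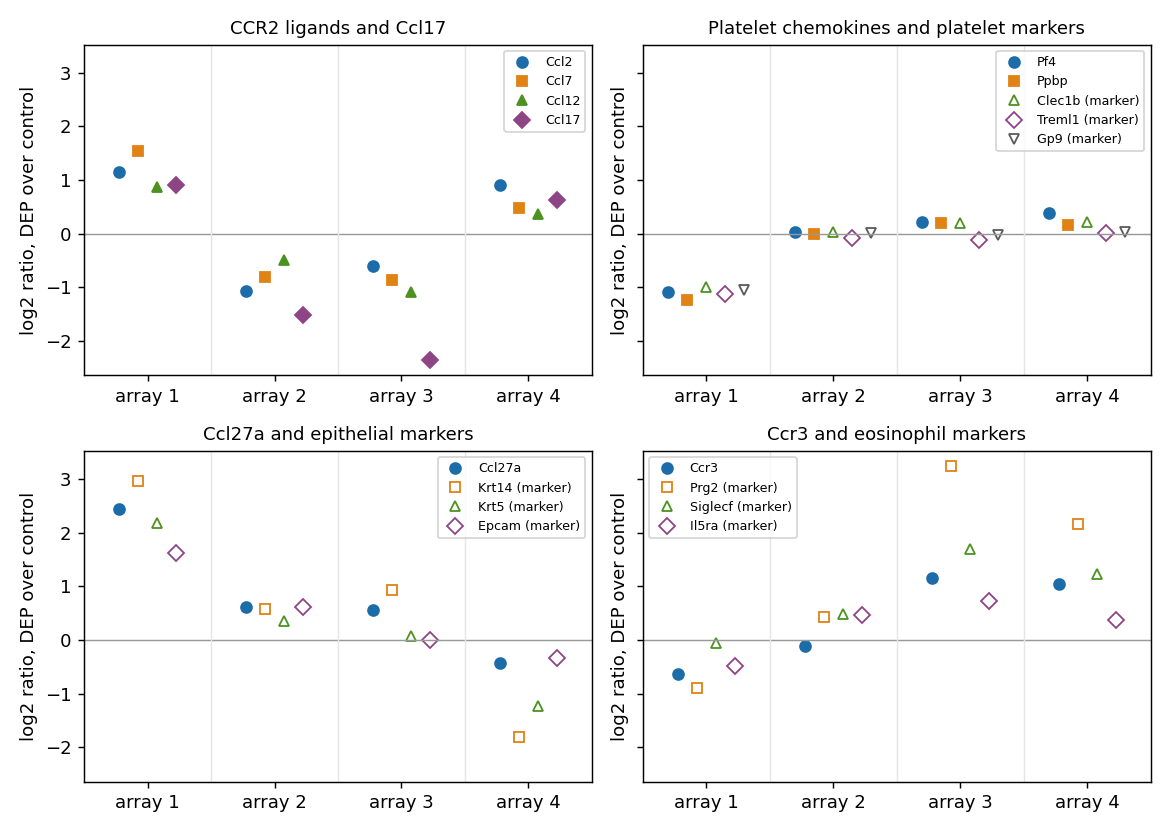
Log2 ratio of DEP over control on each array for the CCR2 ligands with Ccl17, for Pf4 and Ppbp, for Ccl27a and for Ccr3 (filled symbols), the last 3 beside 3 marker genes each, picked after their values were seen, of platelets, epithelium and eosinophils (open symbols). The CCR2 ligands and Ccl17 lie above 0 on arrays 1 and 4 and below it on arrays 2 and 3, and in the other panels the chemokine genes and the markers shown share the array with the lowest ratio, which is array 4 for Ccl27a and array 1 for the others. Of the 10 epithelial markers, 5 that are not shown were below 0 on array 1 and lowest on array 3.

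Neutrophils are drawn by the ligands of CXCR2. Cxcl1 on chromosome 5 had ratios of 2.36, -0.01, -0.02 and -0.29. Its DEP signal was 286 on array 1 and 52.9 to 70.2 on the others, and its control signal was 53.7 to 85.7, so that 1 DEP extract stood apart from the rest. Cxcl5 had -0.54, 0.44, -1.41 and 0.73 and did not share this. Cxcl2 and Cxcl3, which lie in the same row of neighbours, were not tested. The receptor gene Cxcr2 had -0.54, 0.41, 0.63 and 0.14. Granulocyte markers were below 0 on array 1 for all 13 genes and above 0 for 7, 12 and 12 on arrays 2, 3 and 4, with medians of -0.89, 0.01, 0.70 and 0.39.

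The platelet chemokine genes Pf4 (-1.08, 0.04, 0.21 and 0.38) and Ppbp (-1.24, 0.00, 0.19 and 0.16) are stored products of megakaryocytes and platelets and lie side by side on chromosome 5. They were over 2-fold lower in the DEP channel on array 1 and near 0 on the others. The signal of Pf4 was 26428 with DEP and 55868 in the control on array 1. All 11 platelet and megakaryocyte markers were below 0 on that array, with medians of -0.78, 0.03, 0.21 and 0.06 on arrays 1 to 4. Their summed signal spanned 17992 to 26209 in the DEP channel and 20848 to 35230 in the control channel, and their part in the ratios of Pf4 and Ppbp was not tested.

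The interferon-induced ligands of CXCR3, the receptor of effector T cells, had means of 0.33 for Cxcl9 and 0.09 for Cxcl10. Cxcl9 had ratios of -0.88, -0.19, 1.28 and 1.11 at its brightest probe and -0.89, -0.34, 0.51 and 0.57 at the other, whose mean was -0.04. Both probes were below 0 on arrays 1 and 2 and above it on arrays 3 and 4, so that the sign of the mean depends on the probe. Cxcr3 had -0.11, 0.29, 0.69 and 0.60, with a mean of 0.37.

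Cx3cl1, which encodes fractalkine, a chemokine of neurons and endothelium, had the second lowest mean of the family genes measured in full, after Ccl17. Its ratios were -1.0, -0.43, -0.43 and 0.04, with a mean of -0.45 ± 0.43 (SD, n = 4; limma adjusted p = 0.293). Of 8 neuron markers measured in full, 0, 0, 0 and 6 were above 0, with medians of -2.40, -1.47, -0.39 and 0.33, and their summed signal spanned 20919 to 27126 in the DEP channel and 19565 to 88791 in the control channel. Of 8 endothelial markers, 2, 6, 0 and 3 were above 0, with medians of -0.06, 0.12, -0.34 and -0.03. The part of either list in the Cx3cl1 ratios was not tested. Its receptor gene Cx3cr1, a gene of monocytes and microglia, had means of 0.04, -0.01 and -0.35 at its 3 probes. The last, A_52_P99810, was below 0 on every array (-0.61, -0.37, -0.26 and -0.17), while the others were mixed.

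Of the 15 receptor genes measured in full, 13 had a mean above 0, with a median of 0.20 and a highest mean of 0.46. With the sign of array 4 turned, 8 of the 15 did (53.3%, against 51.5% of all genes), with a median of 0.07. With normexp and loess 11 did (73.3%, against 50.8%), with a median of 0.11. With normexp and centring on the median 12 did (80.0%, against 72.7%). Chemokine receptors are carried mainly by white blood cells. Among white cell markers measured in full, means were above 0 for 7 of 8 T and NK cell genes (median 0.23), 6 of 9 B cell genes (0.21), 7 of 13 granulocyte genes (0.13), 5 of 10 macrophage and monocyte genes (0.07), 3 of 3 eosinophil genes (0.84) and 5 of 6 mast cell genes (0.42), against 55.7% of all genes. Ccr6, the gene of the CCL20 receptor, had 0.73, 0.55, 0.46 and -0.11. Cxcr4 stayed between -0.38 and 0.30. Among the atypical receptor genes, Ackr2, whose product degrades inflammatory CC chemokines, had 0.91, 0.10, -0.13 and 0.27, and Ackr3, whose product takes up CXCL12, had -0.13, 0.33, 0.42 and 0.78. Ackr1, whose product carries chemokines across venules and is also found on red cell precursors, had -1.10, -0.56, 0.01 and 0.53 and, with Ccr2, was 1 of the 2 receptor genes with a mean below 0.

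Genes that act downstream of the receptors did not pass the adjusted limit in either direction. Of 31 signalling genes measured in full, 2 were higher and 0 lower at an unadjusted p under 0.05, where 6.65% and 5.86% of all genes measured in full were. On all arrays 5 were above 0 and 1 below 0, against 15.4% and 10.2% of all genes, so that the list was near the background, and its median was 0.12. Pik3r5, a regulatory subunit of the phosphoinositide kinase that chemoattractant receptors engage, had 0.35, 0.57, 0.61 and 0.40. Dock2, which drives lymphocyte migration, had 0.00, 0.31, 1.14 and 0.46. The lowest means were those of Rgs1 at -0.48 and of Grk3, a receptor kinase gene, at -0.43. Of 9 other chemoattractant receptor genes, 0 were higher (against 6.65%) and 1 was lower (against 5.86%) at that limit, S1pr1, with -0.78, -0.41, -0.64 and -0.12. Fpr1 and Fpr2, which encode receptors for bacterial formyl peptides, had means of 0.42 and 0.39. Of 14 inducing cytokine and response genes tested, 5 were measured in full, with means from 0.03 for Csf1 to 0.21 for Il1b. Tnf was not measured in full.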

How the data were processed

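The authors quantified 4 two-colour arrays with Agilent Feature Extraction 10.10.1.1. The deposited log10 ratio is Cy5 over Cy3 processed signal, and for the processed intensity that they deposited, the software subtracted background and normalized the dyes within the array; flags for outlying and well-above-background spots, deposited beside them, are other measures than intensity. The genome build of the probe annotation was not used, and probes were named through RefSeq accessions (GRCm38.p6; 27655 of 39429 probes matched). A table of rounded log10 ratios by the authors served as an alternative, and 0 columns lacked a sample. Channel direction follows the source names in the labels, which otherwise list both treatments under 1 channel.

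Log10 ratios were converted to log2. Control spots, flagged spots (164 to 274 per array) and spots without a ratio were dropped, and spots of a probe averaged. Probes with at least 3 ratios were fitted with an intercept in limma 3.58.1 (R 4.3.3; lmFit, eBayes, prior degrees of freedom 1.98) with Benjamini-Hochberg adjustment over 31577 probes. The brightest tested probe represented a gene. The fit was tested on simulated data. Only 4 arrays limit the precision. Named in full were genes measured in full with 1 sign on all arrays and an unadjusted p under 0.05, genes well above background in 1 channel only (none on all 4 arrays), their partner ligands or receptors, and genes with probes of opposite sign; other family genes were named after their values were seen. Members, lists and tests were chosen with earlier results of these data known. Alternatives were normexp (offset 50, on median signals) with loess or median centring, the deposited table, background filters, flagged spots kept, an intensity trend, no moderation, probe means, leaving out each array, and turned signs. Tables were made in Python 3.11.15 (numpy 2.4.6, pandas 2.3.3) and figures with matplotlib 3.10.9. The values of 1 family gene are not reported here.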

Additional observations from a re-analysis of the deposited data

Results flagged for a closer look

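In 2 of the 43 family genes measured in full, 1 array lay apart from the other 3 by a gap above Dixon's critical value for 4 samples; chance gives this in about 5% of genes, and 4.33% of all 14275 genes showed it. Both were on array 1. Cxcl1 had a log2 ratio of 2.36 there and of -0.29 to -0.01 on the others. Ppbp had -1.24 there and 0.00 to 0.19 on the others.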

How the results depend on the processing

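Over 15 alternatives, the number of family genes with an adjusted p under 0.05 in limma stayed at 0, except under normexp with median centring, where it was 1 (Cxcl12, mean 1.12). That setting moved the median of all genes from 0.037 to 0.095 and called 827 genes, 739 of them higher. The number of genes higher at an unadjusted p under 0.05, 10 as reported, was 6 with normexp and loess (5 of them among the 10), 10 under normexp with median centring (5 shared), 6 with both channels required above background (fewer genes tested), 5 without moderation (4 shared) and 5 to 9 without 1 array (4 to 7 shared). The 0 lower genes became 1 with an intensity trend (Cx3cl1) and 0 to 2 without 1 array. The 1 gene higher past 2-fold became 0 under normexp followed by loess, 2 under normexp with each array centred on its median (Ccl27a and Cxcl12), 0 with either background filter and 1 to 2 without 1 array; the lower count was 0 to 1. The median of 0.16 was 0.06 with normexp and loess and 0.11 to 0.24 without 1 array. With the sign of array 1 turned, 7 were higher (0 shared) and 1 lower at an unadjusted p under 0.05, 0 higher and 1 lower past 2-fold; with that of array 4 turned, 3 were higher (1 shared) and 2 lower, 2 higher past 2-fold, and the median was -0.03. Under normexp with median centring the sign turned for Ccl1 (-0.10), Cxcr1 (-0.20) and Xcl1 (-0.18), which were not measured in full, and for 4 of the 43 genes that were: Pf4 (-0.11 to 0.49), Ppbp (-0.22 to 0.31), Ccl9 (-0.13 to 0.12) and Ccr10 (0.20 to -0.10). The sign of the mean also turned for 3 of the 43 with normexp and loess, 1 with probe means, 5 to 7 without 1 array (Ccl17 from -0.59 to 0.01 without array 3, Cxcl1 from 0.51 to -0.11 without array 1), 14 with array 1 turned and 15 with array 4 turned. Causes were not tested beyond the filters. No paired analysis was possible beyond the ratios, which pair the DEP and control extracts of an array, because the labels link no other samples.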
